A study of Mus musculus and synthetic construct with 30 samples.

Results

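The expression of 10 immediate early genes, *Fos*, *Fosb*, *Jun*, *Junb*, *Egr1*, *Egr2*, *Atf3*, *Ier2*, *Dusp1* and *Nr4a1*, was followed in RNA-seq libraries of the *Peril* knockout. The genes were taken by symbol from a table of 26759 genes, and each symbol stood on a single row. There were 16 libraries. In murine embryonic stem cells (mESC), 3 wild-type (WT) wells of 1 clone and 3 knockout (KO) wells of another clone were compared, all male and grown in 2i medium on feeder fibroblasts. In the E14.5 kidney, 3 WT embryos (2 male, 1 female) and 3 KO embryos (1 male, 2 female) of litter 43 were compared. In forebrain pieces holding the ganglionic eminence together with the olfactory bulb (GE/OB), also from E14.5, 2 WT embryos, both male, and 2 KO embryos, both female, of litter 46 were compared, so genotype and sex cannot be told apart there. All carried a mixed C57BL/6J/129S6 background (N3 to C57BL/6J, no Neo). The KO allele, Periltm1.1Vlcg, has most of the *Peril* lincRNA gene body replaced by a *LacZ* reporter under the endogenous promoter. Wells of a clone are not separate animals or lines. The fit over all 16 libraries used 1 shared estimate of the spread of each gene, from wells and embryos together. The p-values in mESC thus hold no spread between clones of a genotype.

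Immediate early genes are switched on within minutes of a signal, without new protein synthesis. Growth factors, serum, depolarisation, stress and the dissociation or dissection of a tissue are known inducers. Signals through ERK and calcium reach serum response factor and CREB, which act at many of these promoters. The transcripts are short-lived, so a low level is usual in resting cells and the level can move between the collection of one sample and the next. *Fos* and *Fosb* encode partners of Jun proteins in the AP-1 dimer, and *Jun* and *Junb* encode those partners. *Egr1* and *Egr2* encode zinc finger factors, *Atf3* a stress-induced bZIP factor, *Nr4a1* an orphan nuclear receptor and *Ier2* a nuclear protein. *Dusp1* encodes a phosphatase that removes the activating phosphates from MAP kinases.

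The promoters are shown for *Fos*, for *Fosb*, whose levels correlated best with those of *Fos* over the kidneys, and for *Nr4a1* and *Dusp1*, chosen after the values were seen because they hold the most copies of the motif described next. Each stretch covers the 250 bases before a RefSeq start, 5′ to 3′, on GRCm38.p6. Capitals mark TGACG on either strand (CGTCA where it lies on the other strand), the core of the cAMP response element to which CREB binds.

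*Fos*, chr12:85473640-85473889, plus strand: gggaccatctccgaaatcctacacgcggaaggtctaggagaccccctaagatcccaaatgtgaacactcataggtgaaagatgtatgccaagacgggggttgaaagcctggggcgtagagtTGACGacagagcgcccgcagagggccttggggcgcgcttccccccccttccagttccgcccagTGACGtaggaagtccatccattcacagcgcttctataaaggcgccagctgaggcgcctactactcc

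*Fosb*, chr7:19310046-19310295, minus strand: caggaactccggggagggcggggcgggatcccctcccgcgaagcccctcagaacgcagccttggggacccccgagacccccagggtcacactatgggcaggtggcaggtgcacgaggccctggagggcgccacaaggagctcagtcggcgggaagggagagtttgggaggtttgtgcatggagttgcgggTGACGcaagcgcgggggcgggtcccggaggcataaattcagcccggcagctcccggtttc

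*Nr4a1*, chr15:101266596-101266845, plus strand: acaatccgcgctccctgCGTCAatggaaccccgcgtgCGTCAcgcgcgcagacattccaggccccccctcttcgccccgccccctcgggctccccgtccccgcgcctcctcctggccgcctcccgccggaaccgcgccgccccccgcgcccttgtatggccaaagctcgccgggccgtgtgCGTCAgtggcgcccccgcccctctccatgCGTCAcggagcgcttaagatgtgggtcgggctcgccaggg

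*Dusp1*, chr17:26508473-26508722, minus strand: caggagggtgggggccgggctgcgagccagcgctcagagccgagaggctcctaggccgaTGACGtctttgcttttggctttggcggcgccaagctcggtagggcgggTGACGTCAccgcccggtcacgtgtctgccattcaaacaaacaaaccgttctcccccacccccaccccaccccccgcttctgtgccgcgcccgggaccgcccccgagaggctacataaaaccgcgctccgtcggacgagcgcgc

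Of the 10 members, 8 had an entry in the RefSeq promoter table, and *Egr1* and *Ier2* did not. TGACG was found in 7 of these 8 (*Fos*, *Fosb*, *Junb*, *Egr2*, *Atf3*, *Dusp1* and *Nr4a1*, not *Jun*, and for *Egr2* in any of its 5 entries), against 17.8% of the 32851 promoters of the table, which hold 27025 genes. *Fos* had 2 copies, beginning at -129 and -66 counted from the start, and TATAAA at -33. *Nr4a1* had 4 copies. The full palindrome TGACGTCA, which contains TGACG on both strands, was found in *Dusp1* alone, against 1.55% of all promoters. A CArG box, the motif of serum response factor, was found in *Egr2* alone (1.47% of all promoters), and the EGR motif GCGNGGGCG in *Fosb* and *Nr4a1* (4.70%). The AP-1 motif TGANTCA was in none of the 8, against 6.75% of all promoters, and TATAAA stood in 12.4%. These are matches of letters in a window of 250 bases on both strands, and no binding was measured.

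The libraries summed to 17544707 to 45924887 expected counts. The reporter separated the genotypes in mESC, where *LacZ* had 2492 to 4357 counts in KO and 1 to 4 in WT wells, and in GE/OB, where it had 1346 and 2087 counts in KO and 0 and 3 in WT embryos. In the kidney *LacZ* had 4, 9 and 15 counts in KO and 4, 25 and 28 in WT embryos. *Peril* itself had 8, 18 and 11 counts in WT and 8, 3 and 7 in KO mESC wells and 0 in all 10 embryo libraries, so neither transcript checks the genotype labels of the kidney. The tissue labels were checked against marker genes. The 5 mESC markers summed to 3000 to 3140 TPM in mESC and at most 0.67 TPM elsewhere, the 5 kidney markers to 305 to 366 TPM in kidney and at most 2.35 TPM elsewhere, and the 5 ganglionic eminence markers to 848 to 914 TPM in GE/OB and at most 5.07 TPM elsewhere. *Pou5f1*, *Zfp42* and *Tdgf1* had 0 counts in GE/OB. GE/OB also held the excitatory forebrain markers at 588 to 718 TPM.

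Levels between genes are given as TPM, the deposited share of transcripts after division by length. In WT mESC *Ier2* was the highest member at 74.2 ± 3.73 TPM (SD, n = 3), followed by *Dusp1* at 29.9 ± 0.956 TPM and *Nr4a1* at 27.6 ± 0.683 TPM. These 3 did not overlap between wells. *Junb* stood at 5.97 ± 0.396 TPM, *Atf3* at 4.19 ± 0.447 TPM and *Jun* at 3.55 ± 0.335 TPM, of which the last pair overlapped. *Fos* was at 2.04 ± 0.435 TPM. *Fosb* (0.290 TPM), *Egr1* (0.260 TPM) and *Egr2* (0.0733 TPM) were under 1 TPM.

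The order differed in the embryos. In WT kidney *Ier2* was again highest at 31.4 ± 2.85 TPM (n = 3), but *Jun* at 22.4 ± 1.82 TPM and *Egr1* at 10.1 ± 1.18 TPM came next, above *Dusp1* at 5.33 ± 0.752 TPM. *Nr4a1* (2.99 ± 0.564 TPM) and *Atf3* (2.72 ± 0.571 TPM) overlapped, as did *Fos* (1.01 ± 0.233 TPM) and *Egr2* (0.570 ± 0.604 TPM). In WT GE/OB *Dusp1* at 35.5 ± 0.537 TPM (n = 2) and *Jun* at 33.4 ± 2.87 TPM overlapped at the top, and *Ier2* followed at 9.45 ± 0.530 TPM. *Egr1*, *Fos* and *Atf3* formed a run of overlapping values at 1.09, 1.01 and 0.840 TPM. *Fos*, the gene most often used as a readout of recent stimulation, thus lay between 0.660 and 2.51 TPM in all 16 libraries. The 10 members summed to 145 to 159 TPM in mESC, 75.9 to 86.9 TPM in kidney and 82.4 to 101 TPM in GE/OB.

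TPM depends on the effective length that the authors' quantification assigned to each library. For *Ier2* this length ran from 1318 to 1334 bases over all libraries. For *Fos* it ran from 1262 to 1916, for *Atf3* from 623.6 to 1791 and for *Egr2* from 263.7 to 2774, so TPM of these 3 genes moved with the transcript to which reads were assigned. WT kidney embryo 8 shows the size of this, with 5 *Egr2* counts written as 1.26 TPM while the 18 counts of WT embryo 3 gave 0.310 TPM. Values of a gene across libraries are therefore given as CPM, the share of counts in a library without division by length, scaled by TMM, an estimate of relative library size from genes that change little.

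**Figure D1:**
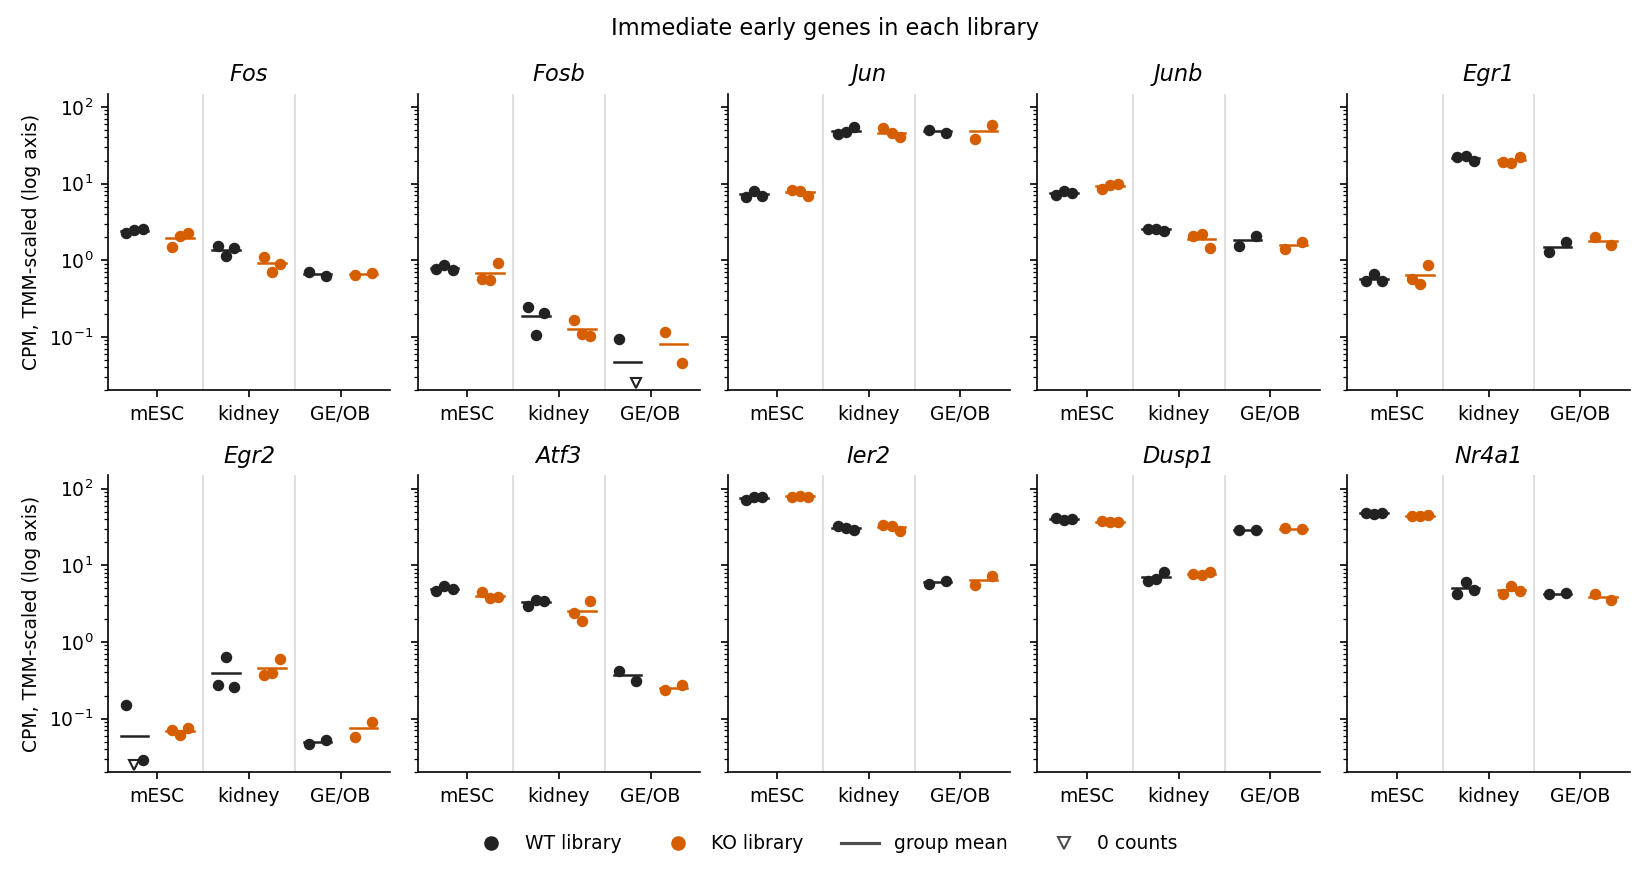
CPM (log axis) of each member in each of the 16 libraries, WT in black and KO in orange, with a line at the group mean and an open triangle for 0 counts. The tissues separate most members, with *Egr1* between 18.6 and 23.0 CPM in kidney and under 1 CPM in mESC, while WT and KO points lie side by side.

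The tissues were then compared in WT libraries, by contrasts of a single edgeR fit over all libraries. In the comparisons with mESC, culture in 2i medium on feeders and the kind of cell cannot be told apart. Between kidney and mESC all 10 members were called at an adjusted p under 0.05, 3 higher and 7 lower in kidney. The background was high, since 44.1% of the 17459 tested genes were called higher in kidney and 40.2% lower. The median size of the difference was 2.28 on the log2 scale for the members and 1.14 for all tested genes. *Fosb* passed the filter on low counts only through mESC and *Egr2* only through kidney, so these had to differ and are not counted as support. Of the other 8, 2 were higher and 6 lower, and the median size of their difference was 2.05.

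*Egr1* differed most. It had 0.531, 0.652 and 0.539 CPM in the 3 WT mESC wells and 22.5, 23.0 and 19.5 CPM in the 3 WT kidneys, with no overlap. The log2 fold change was 5.23 ± 0.172 (SE), adjusted p = 2.64e-14. *Jun* had 6.71, 8.04 and 6.98 CPM in mESC and 44.4, 47.5 and 54.8 CPM in kidney, a log2 fold change of 2.75 ± 0.149 (adjusted p = 2.07e-11). The fitted fold was 37.6 for *Egr1* and 6.74 for *Jun*. *Egr2* rested on 33 counts in the 3 kidneys and 5 in the 3 mESC wells. Without TMM scaling this was a ratio of 8.41 with a 95% counting interval of 3.26 to 27.6, and the fitted fold was 6.54.

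The other members were lower in kidney. *Nr4a1* had 48.9, 46.8 and 48.8 CPM in WT mESC and 4.28, 6.14 and 4.79 CPM in WT kidney, a log2 fold change of -3.25 ± 0.112 (adjusted p = 4.68e-14). *Dusp1* had 41.4, 39.0 and 39.9 CPM in mESC and 6.27, 6.64 and 8.25 CPM in kidney (-2.53 ± 0.0829, adjusted p = 2.67e-14). In both the lowest mESC well stood far above the highest kidney. *Junb* fell by 1.57 on the log2 scale (adjusted p = 8.45e-08) and *Ier2* by 1.29 (adjusted p = 2.08e-10). *Fos* was lower by a smaller margin, from 2.24, 2.46 and 2.58 CPM in mESC to 1.55, 1.14 and 1.43 CPM in kidney (-0.82 ± 0.212, adjusted p = 0.00184). *Fosb*, with 70 counts over the WT mESC wells and 16 over the WT kidneys, had a ratio of 0.291 (0.158 to 0.506). *Atf3* was closest to the line at -0.59 ± 0.187 (adjusted p = 0.00768), and its call was lost with no scaling factor (-0.34, adjusted p = 0.105), which moved the median gene by 0.313 and left *Atf3* at -0.641 relative to it against -0.652 with TMM, and on log2 TPM (-0.62, adjusted p = 0.0852).

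**Figure D2:**
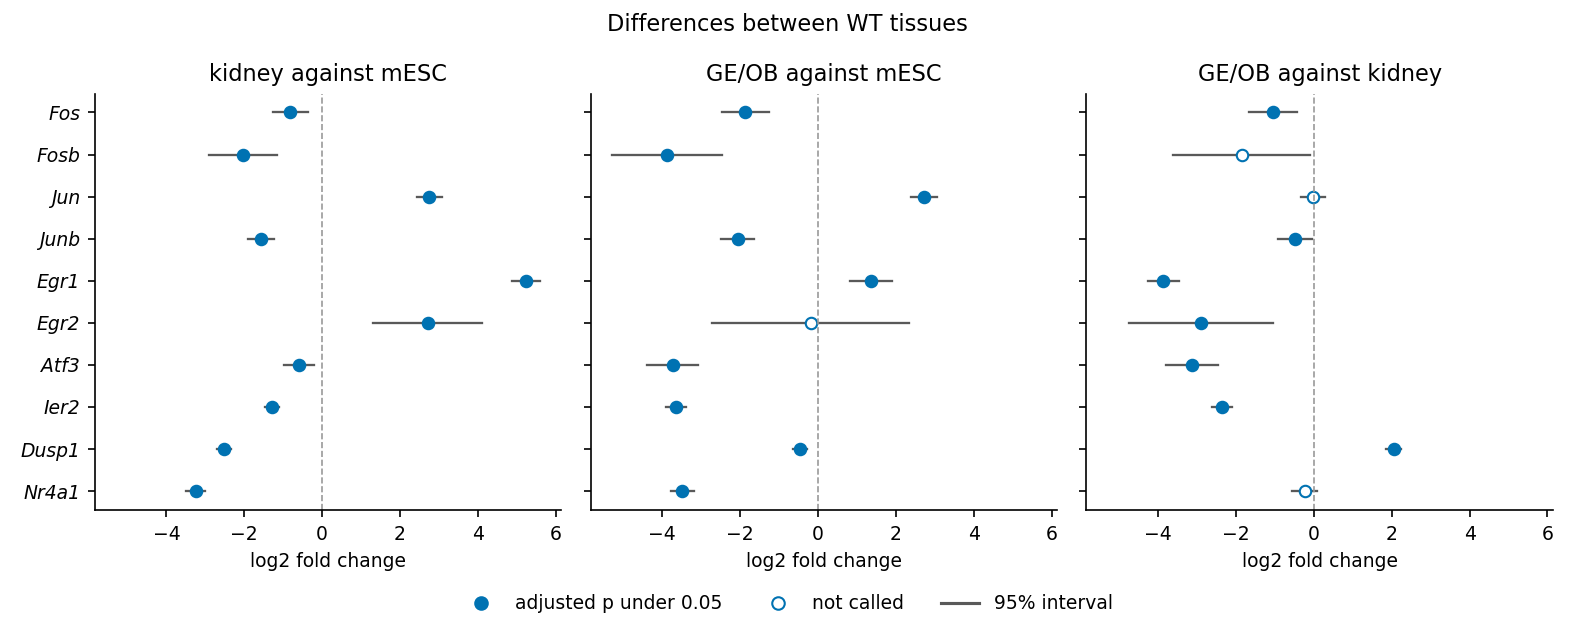
Log2 fold change of each member between WT tissues (x axis, points) with its 95% interval (lines), filled where the adjusted p was under 0.05. *Jun* and *Egr1* lie above 0 in both comparisons with mESC, at 2.75 and 5.23 in kidney and 2.73 and 1.36 in GE/OB, and *Dusp1* is the member above 0 between GE/OB and kidney, at 2.06.

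GE/OB was compared with mESC in the same way, and 9 members were called, 2 higher and 7 lower, where 43.5% of tested genes were higher and 41.3% lower. Without *Fosb* and *Egr2*, which passed the filter through a single tissue, 2 of 8 were higher and 6 lower. This comparison shares the WT mESC wells with the previous one, so the values are given side by side without a test of likeness. *Jun* was 45.2 and 50.7 CPM in WT GE/OB, a log2 fold change of 2.73 ± 0.160 (adjusted p = 5.05e-11). *Egr1* was 1.27 and 1.71 CPM, a log2 fold change of 1.36 ± 0.254 (adjusted p = 9.75e-05). *Ier2* was 5.77 and 6.27 CPM where WT mESC had 70.9 to 78.3, a log2 fold change of -3.65 ± 0.119 (adjusted p = 1.81e-14). *Nr4a1* was 4.22 and 4.35 CPM (-3.49 ± 0.139, adjusted p = 2.48e-13). *Atf3* fell by 3.73 on the log2 scale and rested on 6 and 9 counts in GE/OB. *Junb* and *Fos* fell by 2.06 and 1.87. *Fosb* had 2 counts over both WT GE/OB embryos, a ratio to mESC of 0.0785 (0.00932 to 0.294), and *Egr2* had 2 counts against 5 and was not called.

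*Dusp1* was the member that depended on the scale. It had 28.7 and 29.2 CPM in WT GE/OB and 39.0 to 41.4 CPM in WT mESC, a log2 fold change of -0.47 ± 0.0842 (adjusted p = 6.76e-05), but on log2(TPM + 0.1) with limma it was 0.25 higher in GE/OB (adjusted p = 0.0197), and with no scaling factor it was -0.15 (adjusted p = 0.0982). The TPM scale moved the median of all tested genes by 0.648 between GE/OB and mESC, and relative to that median *Dusp1* was at -0.40 on TPM and -0.52 on CPM with TMM. The same shift was 0.536 between GE/OB and kidney and 0.093 between kidney and mESC.

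Between GE/OB and kidney 7 members were called, 1 higher and 6 lower in GE/OB, where 37.9% of tested genes were higher and 40.6% lower. Without *Fosb* and *Egr2* it was 1 higher and 5 lower of 8. Both sets are dissected tissue of E14.5 embryos, all kidneys from litter 43 and all GE/OB from litter 46. Tissue and litter, with its collection, thus cannot be told apart here. *Dusp1* was higher at 28.7 and 29.2 CPM against 6.27 to 8.25 CPM in WT kidney, a log2 fold change of 2.06 ± 0.0909 (adjusted p = 2.66e-12). *Egr1* fell by 3.87 on the log2 scale (adjusted p = 7.57e-12), *Atf3* by 3.14 (adjusted p = 1.11e-07) and *Ier2* by 2.37 (adjusted p = 1.35e-11). *Fos* was 0.621 and 0.703 CPM in GE/OB (-1.04 ± 0.293, adjusted p = 0.00392), and its difference was 0.02 on log2 TPM (-0.519 relative to the median gene) and lost the call with length offsets and a looser filter in DESeq2 (-0.62, adjusted p = 0.230). *Egr2* (2 counts against 33, ratio 0.131, 0.0152 to 0.511) was called as well. *Junb* was called at -0.49 ± 0.209 (adjusted p = 0.0427), but was at 0.13 on log2 TPM (-0.407 relative to the median gene), and the call was lost with DESeq2 (adjusted p = 0.0792) and without WT GE/OB embryo 1 (-0.30, adjusted p = 0.311) or WT kidney embryo 1, 3 or 8 (adjusted p = 0.0734, 0.0682 and 0.0537). *Jun* (-0.03 ± 0.147, 95% interval -0.34 to 0.29) did not pass, and on log2 TPM, which moved the median gene by 0.536, it was at 0.57 (adjusted p = 0.00552) and at 0.037 relative to that median. *Nr4a1* (-0.24 ± 0.150, -0.56 to 0.08) did not pass either, was called at -0.37 without WT kidney embryo 1 (adjusted p = 0.0314) and was at 0.39 on log2 TPM (adjusted p = 0.0153), which is -0.144 relative to the median gene. *Fosb* (2 counts against 16, adjusted p = 0.0503) was called without WT kidney embryo 3 (-2.16, adjusted p = 0.0266) and without WT GE/OB embryo 1 (adjusted p = 0.0154), which left 0 counts in GE/OB. In bulk tissue, a change in the share of expressing cells and a change of the RNA in each cell cannot be told apart.

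Other immediate early and primary response genes moved in both directions between the tissues. Of the 34 listed, 33 were tested, and *Egr4* was not. Between kidney and mESC 16 were higher and 14 lower. *Ier5* was higher at 3.82 ± 0.0920 (log2, adjusted p = 5.89e-16). *Klf2* (-5.32), *Socs3* (-3.09) and *Klf10* (-1.87) were lower. Between GE/OB and mESC 11 were higher and 17 lower, with *Ier5* at 4.45 and *Klf10* at -2.87, *Socs3* at -3.62 and *Klf2* at -7.28. Between GE/OB and kidney 13 were higher and 16 lower, and *Nr4a3*, a paralogue of *Nr4a1*, was higher at 5.28 ± 0.330 (adjusted p = 2.25e-10) and *Plk3* at 1.97, while *Zfp36l1* (-2.14) and *Klf10* (-1.01) were lower. In the same order 44.1%, 43.5% and 37.9% of all tested genes were called higher and 40.2%, 41.3% and 40.6% lower. The median size of the difference for these genes was 1.554, 1.656 and 1.097 in the 3 comparisons, against 1.138, 1.484 and 0.944 for all tested genes. Of 11 feedback targets of ERK, 9 were called higher and 2 lower in kidney than in mESC. In GE/OB 4 were higher and 5 lower than in mESC, and 1 was higher and 10 lower than in kidney. Their part in the member values was not tested.

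Coordination between libraries could be tested in the kidney, where 6 embryos of 1 litter were collected. The question was whether these genes, which respond to handling, moved together from embryo to embryo. *Fos* had 1.55, 1.14 and 1.43 CPM in WT embryos 1, 3 and 8 and 1.11, 0.704 and 0.906 CPM in KO embryos 7, 9 and 10. The highest and the lowest embryo differed 2.20-fold. Over the 6 embryos 6 of the 9 other members had a positive Pearson's r with *Fos* and 3 a negative one. The median r was 0.359 for the members and -0.0311 for all 17458 other tested genes.

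*Fosb* was closest to *Fos*, with r = 0.835 (exact permutation p = 0.0431, adjusted p = 1.00 over all tested genes) and Spearman's rho = 0.714 (exact permutation p = 0.136, adjusted p = 0.998). Without KO embryo 9 and WT embryo 1, the 2 farthest from the median of *Fos*, r was 0.818. With the genotype means removed it was 0.809. *Fosb* rests on 3 to 9 counts in each kidney, and 1.17% of all other tested genes had an r at least as high. *Atf3* (r = 0.587, rho = 0.314) and *Junb* (r = 0.506, rho = 0.657) followed, with exact permutation p = 0.225 and 0.332 for r and 0.564 and 0.175 for rho. For *Jun* r was 0.417 and rho 0.257, for *Egr1* 0.359 and 0.6, for *Ier2* 0.0385 and 0.143, for *Dusp1* -0.318 and -0.257, for *Nr4a1* -0.363 and -0.371 and for *Egr2* -0.540 and -0.543, with exact permutation p between 0.242 and 0.958. Without the same 2 embryos r was 0.0405 for *Atf3*, 0.813 for *Junb*, 0.894 for *Jun*, -0.569 for *Egr1*, 0.117 for *Ier2*, 0.0591 for *Dusp1*, 0.138 for *Nr4a1* and -0.786 for *Egr2*. The sign thus turned for *Egr1*, *Dusp1* and *Nr4a1*. With the genotype means removed r was 0.219 for *Atf3*, -0.220 for *Junb*, 0.327 for *Jun*, -0.00528 for *Egr1*, 0.217 for *Ier2*, 0.175 for *Dusp1*, -0.917 for *Nr4a1* and -0.514 for *Egr2*, so the sign turned for *Junb*, *Egr1* and *Dusp1*. All adjusted p-values of the 9 relations were 1.00 for r and 0.998 for rho. With 6 embryos there are 720 orders, which limits how small a permutation p can be, and no tested gene passed the adjustment. These adjusted values therefore say nothing about whether the genes moved together. At an unadjusted p under 0.05 there was 1 of 9 members, against 3.19% of all other tested genes.

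Among all 45 pairs of members the median r over the 6 kidneys was -0.0204, with 21 pairs positive. The mean over all pairs of tested genes was 0.0015. The highest pair was *Fos* with *Fosb* and the lowest *Fosb* with *Egr2* at -0.883, both with few counts. Among better counted genes *Egr1* and *Atf3* had r = 0.721 and *Ier2* and *Atf3* -0.696. Without *Fosb* and *Egr2* the median over the remaining 28 pairs was -0.0151, and with the genotype means removed the median over 45 pairs was -0.112. After removal of each tissue and genotype mean over all 16 libraries, the median was 0.0116, with 23 pairs positive. These values describe libraries that share depth and scaling, and pairs above and below 0 were about as many.

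**Figure D3:**
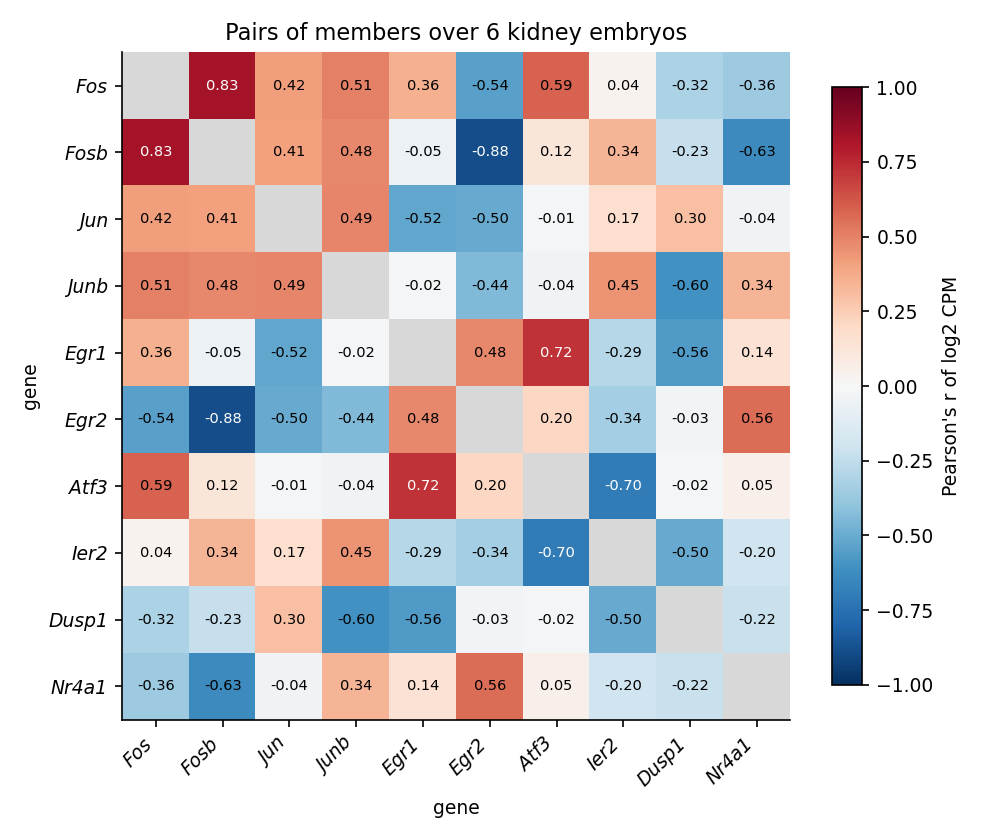
Pearson's r of log2 CPM for each pair of members over the 6 kidney embryos (red positive, blue negative, grey the gene with itself). Positive and negative cells are mixed, with 21 of 45 pairs above 0 and values from -0.883 to 0.835.

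The genes whose kidney pattern was most like that of the members were *Myl4*, *Ercc5*, *Arfgap1*, *Dennd4b*, *Cox8a*, *Raly*, *Gpsm1*, *Gm10593*, *Mapk7* and *Abhd14b*, with a mean r to the 10 members of 0.303 to 0.308 among 13562 genes of at least 1 CPM. Each of the 10 had a negative r with 2 or 3 members. *Fos* itself had a mean r of 0.169 with the other 9 members. Over the 16 libraries, with tissue and genotype means removed, the closest genes were *Sema5b*, *Cchcr1*, *Gga1*, *Abcd4*, *Loh12cr1*, *Slc25a47*, *Gm15601*, *Abca7*, *Cacfd1* and *Inf2*, with a mean r of 0.177 to 0.187 among 14374 genes. These are descriptions over 6 and 16 libraries.

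The spread within groups was compared with counting error. In WT mESC the CV between wells was 2.5% for *Nr4a1*, 3.1% for *Dusp1* and 5.4% for *Ier2*, where counting alone gives 2.6%, 2.9% and 2.1%. *Fos* varied by 7.2% there, where counting gives 11.7%. In WT kidney the CV was 18.9% for *Nr4a1* and 14.9% for *Dusp1* against counting errors of 8.4% and 7.2%, and 15.4% for *Fos* against 16.1%. *Jun* in KO GE/OB, with 38.6 and 58.5 CPM, had a CV of 29.0% where counting gives 2.8%, and *Atf3* in KO kidney, with 2.39, 1.89 and 3.44 CPM, of 30.7% where counting gives 9.8%.

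KO was then compared with WT in each tissue, and no member was called. In mESC 0 of 10 members passed with edgeR and 0 with DESeq2, which gave 8 of them an adjusted p, where edgeR called 6.86% of all tested genes. At an unadjusted p under 0.05 the count was 0 by both tools. In the kidney the count was 0 of 10 by both tools against a background of 0.223%, with 2 members at an unadjusted p under 0.05 by each tool. By edgeR these were *Fos* and *Junb*, both lower, where 3.79% of all tested genes were lower at that threshold. The count of 2 became 0 with sex as a covariate or without WT embryo 1, 1 without WT embryo 3 or KO embryo 9 and 3 without WT embryo 8. In GE/OB 0 of 10 passed by both tools against 0.063%, with 0 at an unadjusted p under 0.05. The share of all tested genes at that unadjusted threshold is not given for mESC and GE/OB. The median size of the difference was 0.202, 0.199 and 0.170 on the log2 scale in mESC, kidney and GE/OB, against 0.144, 0.0890 and 0.0860 for all tested genes. Without *Fosb* and *Egr2*, which had few counts, it was 0.17, 0.137 and 0.101 for the members.

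In the kidney *Fos* was at 1.14 to 1.55 CPM in WT and at 0.704 to 1.11 CPM in KO embryos, and the ranges did not meet. The log2 fold change was -0.62 ± 0.226 (95% interval -1.11 to -0.14, adjusted p = 0.509). With lengths taken into account the difference was smaller, at -0.38 with DESeq2, length offsets and a looser filter and -0.24 on log2 TPM. *Junb* was 2.54, 2.59 and 2.44 CPM in WT and 2.06, 2.22 and 1.46 CPM in KO embryos, again without overlap (-0.41 ± 0.171, 95% interval -0.775 to -0.051, adjusted p = 0.570). Without KO embryo 10 it was -0.23. The 3 WT values of *Junb* had a CV of 3.0%, where counting alone gives 11.9%. The lack of overlap thus rests on WT values closer together than counting error would give. These 2 members were the ones whose groups did not overlap, while 10.2% of tested genes had that pattern, and 3.79% of tested genes were lower at an unadjusted p under 0.05. With sex as a covariate *Fos* was at -0.46 (adjusted p = 0.637) and *Junb* at -0.39 (adjusted p = 0.619).

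Markers of other cells were summed in the same libraries. The 5 skeletal muscle markers summed to 30.8 to 41.0 TPM in WT and 8.68 to 12.6 TPM in KO kidneys, and *Acta1* (-2.59, adjusted p = 0.00144) and *Actc1* (-1.69, adjusted p = 0.00478) were called lower in KO. No tested marker of the lists that follow was called. Of the 5 neutrophil markers only 1 passed the filter, with a log2 fold change of -2.65 in KO, and the rest of that list could not be called. The 5 neutrophil markers summed to 1.00 to 19.7 TPM in WT and 0.810 to 2.39 TPM in KO, with *Elane* at 0 counts in KO, the 5 erythroid markers to 2470 to 3150 and 2080 to 2800 TPM, and the 5 endothelial markers to 77.0 to 88.0 and 91.2 to 133 TPM. The 5 macrophage markers summed to 14.3 to 16.5 and 11.3 to 15.6 TPM, and the 5 fibroblast markers to 832 to 1420 and 952 to 989 TPM. Their part in the *Fos* and *Junb* values was not tested.

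For the remaining members in the kidney the groups overlapped. *Jun* was 44.4 to 54.8 CPM in WT and 41.2 to 52.5 CPM in KO (95% interval of the log2 fold change -0.35 to 0.20). *Egr1* was 19.5 to 23.0 and 18.6 to 22.2 CPM (-0.36 to 0.14), and *Ier2* was 29.1 to 33.0 and 28.2 to 33.7 CPM (-0.16 to 0.20). *Nr4a1* was 4.28 to 6.14 and 4.29 to 5.37 CPM (-0.34 to 0.18), *Dusp1* was 6.27 to 8.25 and 7.43 to 8.13 CPM (-0.02 to 0.35), and *Atf3* was 2.98 to 3.48 and 1.89 to 3.44 CPM (-0.75 to 0.07). *Fosb* (16 counts in WT and 14 in KO, ratio 0.625, 0.283 to 1.37) and *Egr2* (33 and 56 counts, ratio 1.21, 0.775 to 1.92) were too low to narrow further.

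In mESC *Junb* had 7.02, 8.04 and 7.55 CPM in WT wells and 8.47, 9.64 and 9.79 CPM in KO wells, all above WT. The log2 fold change was 0.30 ± 0.147 (95% interval -0.01 to 0.61, adjusted p = 0.252), and it was called when the mESC wells were fitted on their own (0.34, adjusted p = 0.0173), a fit that called 3561 of 14106 tested genes. *Nr4a1* had 46.8 to 48.9 CPM in WT and 43.5 to 45.2 CPM in KO wells, all below WT (-0.13 ± 0.0947, adjusted p = 0.489). *Dusp1* had 39.0 to 41.4 and 36.7 to 37.6 CPM (-0.11 ± 0.0732, adjusted p = 0.414) and *Atf3* 4.59 to 5.32 and 3.72 to 4.49 CPM (-0.30 ± 0.186, adjusted p = 0.398), also without overlap. The count of 4 members without overlap stands beside 33.7% of all tested genes. *Fos* was 2.24 to 2.58 CPM in WT and 1.51 to 2.29 CPM in KO (-0.32 ± 0.209, adjusted p = 0.415).

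The 95% intervals of *Jun* (-0.26 to 0.45), *Ier2* (-0.10 to 0.24) and *Egr1* (-0.34 to 0.77) in mESC included 0. The counting intervals of *Fosb* (70 counts in WT, 49 in KO, ratio 0.920, 0.625 to 1.34) and *Egr2* (5 counts each, 0.303 to 5.71) included a ratio of 1. The feeder fibroblast markers summed to 2.75 to 3.59 TPM in WT and 1.16 to 2.00 TPM in KO wells, and *Col3a1* among them was lower in KO (-2.32, adjusted p = 0.00275). Their part in the mESC values was not tested. Each genotype is 1 clone, and the authors list different passage numbers for the WT and KO wells, though their methods give a single number. Clone, any difference in passage and genotype thus cannot be told apart in mESC.

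In GE/OB *Dusp1* was 28.7 and 29.2 CPM in WT and 29.5 and 30.4 CPM in KO embryos, a log2 fold change of 0.05 ± 0.0921 (95% interval -0.15 to 0.24, adjusted p = 1.00). *Jun* was 45.2 and 50.7 in WT and 38.6 and 58.5 CPM in KO (-0.33 to 0.35), and *Ier2* was 5.77 and 6.27 and 5.56 and 7.33 CPM (-0.22 to 0.38). *Egr1* was 1.27 and 1.71 in WT and 1.60 and 2.01 CPM in KO (-0.19 to 0.80). *Fos* was 0.621 and 0.703 in WT and 0.640 and 0.687 CPM in KO (-0.73 to 0.72), and the interval shows how little 12 to 22 counts can resolve. *Nr4a1* (-0.48 to 0.23), *Junb* (-0.72 to 0.29) and *Atf3* (-1.57 to 0.46) had intervals that included 0. The counting intervals of *Fosb* (2 and 5 counts, 0.292 to 18.8) and *Egr2* (2 and 4 counts, 0.205 to 15.8) included a ratio of 1. Groups did not overlap for 3 members, *Egr2* and *Dusp1* higher and *Atf3* lower in KO, where 27.3% of all tested genes had that pattern.

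**Figure D4:**
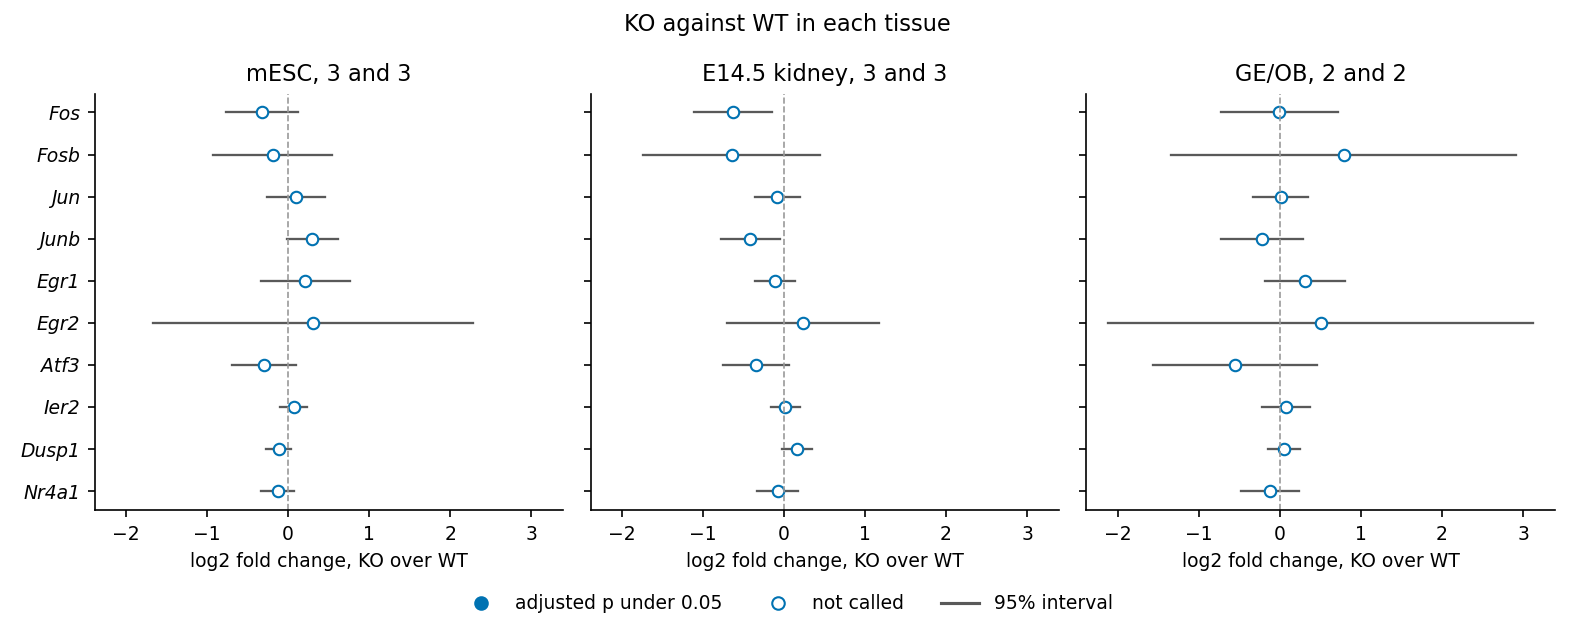
Log2 fold change of KO over WT for each member (x axis, points) with its 95% interval (lines) in mESC, E14.5 kidney and GE/OB, open where the adjusted p was 0.05 or more. All 30 points are open, and the intervals of *Fos* (-1.11 to -0.14) and *Junb* (-0.775 to -0.051) in kidney are the ones that leave out 0.

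The KO effect was also compared between tissues. None of the 10 members was called for mESC against kidney, mESC against GE/OB or kidney against GE/OB, where 2.24%, 1.08% and 0.0344% of all tested genes were. At an unadjusted p under 0.05 there were 2, 0 and 0 members by edgeR and by DESeq2, which gave 7, 7 and 10 of the members an adjusted p. The share of all tested genes at that threshold is not given here, so the 2 are not read as a result. The 2 were *Junb*, at 0.71 ± 0.225 (adjusted p = 0.121), and *Dusp1*, at -0.27 ± 0.114 (adjusted p = 0.250), both for mESC minus kidney. Without WT kidney embryo 8 *Dusp1* was at -0.39 and was called (adjusted p = 0.0491).

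Genes around the members were examined with lists of other early genes, of the pathway and of handling. In mESC 1 of the 33 tested other immediate early and primary response genes was higher in KO and 5 were lower, against 2.27% of all tested genes higher and 4.59% lower. The higher gene was *Sik1*, a CREB target kinase (0.23, adjusted p = 0.0402). Those lower were *Ier3* (-0.83 ± 0.133, adjusted p = 9.58e-04), *Rhob* (-0.45 ± 0.0804, adjusted p = 0.00265), *Klf6* (-0.37, adjusted p = 0.00456), *Ier5* (-0.59, adjusted p = 0.0151) and *Tiparp* (-0.30, adjusted p = 0.0262). All 33 had 0 calls in kidney and in GE/OB by edgeR, with 1 at an unadjusted p under 0.05 in each. For that threshold the share of all tested genes is not given here.

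The counts of the next 4 lists in KO mESC stand beside the same 2.27% of all tested genes higher and 4.59% lower. Of 15 upstream factors and kinases 1, *Elk3*, a partner of serum response factor, was lower in KO mESC (-0.65 ± 0.109, adjusted p = 0.00162). Of 11 feedback targets of ERK 3 were higher: *Etv4* (1.84 ± 0.125, adjusted p = 1.47e-07), *Spry4* (1.43 ± 0.201, adjusted p = 3.08e-04) and *Spry2* (0.28 ± 0.0809, adjusted p = 0.0455). The feedback phosphatase among the members, *Dusp1*, was at -0.11 in the same wells. Of 11 heat shock and handling genes 1 was lower, *Hspa8* (-0.60 ± 0.162, adjusted p = 0.0351), and of 10 hypoxia genes 3 were lower, *Egln3* (-0.56), *Pdk1* (-0.40) and *Bnip3* (-0.46). In kidney and GE/OB none of these 4 lists had a call by edgeR. At an unadjusted p under 0.05 there were 2, 0, 0 and 0 genes in kidney and 0, 1, 0 and 1 in GE/OB, in the same order of lists. These counts also stand without the share of all tested genes and are not read as a result. The heat shock and handling genes summed to 3380 to 4580 TPM in WT and 3760 to 4260 TPM in KO kidneys, and to 9630 to 9840 and 8110 to 8870 TPM in mESC.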

How the data were processed

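Poly(A) RNA from 16 samples was sequenced by the authors, aligned to mm10 and quantified with RSEM. The deposited files give an expected count, a TPM value and an effective length for each of 26759 genes and library. RSEM versions are not given in the sources used here. Expected counts were rounded and fitted with edgeR 4.0.16 (R 4.3.3) over all 16 libraries, with TMM factors, filterByExpr by group, which left 17459 genes (65.2%), 1 coefficient for each of the 6 groups and the quasi-likelihood test, with Benjamini-Hochberg adjustment over all tested genes. The filter asks for 0.342 CPM in as many libraries as the smallest group holds, so a gene can pass through a single group. A member was called at an adjusted p under 0.05. Each standard error was obtained from the fold change and its F statistic. Correlations over the 6 kidneys used log2 CPM with a prior count of 2 and all 720 orders, two-sided. Alternatives covered DESeq2 1.42.0, other scaling, filters and thresholds, limma 3.58.1 on log2(TPM + 0.1), and leaving out each library. The limma fit and the fit with no scaling factor were chosen after seeing the data. The members and lists were chosen with earlier results of these data known. Every member is named, up to 4 called genes with the smallest p of each other list, and *Sik1* and *Tiparp*, named after their values were seen. Sequences are from RefSeq, and nearest genes needed a mean of 1 CPM. The fit was tested on simulated data. Count ratios set the pooled counts of each group over its summed library totals, with no TMM scaling. Their intervals are exact at 95% and cover counting error only. Tables and figures were made with pandas and Matplotlib. The series' MPRA table was not used here.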

Additional observations from a re-analysis of the deposited data

Results flagged for a closer look

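The *Junb* values of KO and WT lay in opposite order in mESC and kidney, though *Junb* was called in neither (adjusted p = 0.252 and 0.570 in the edgeR fit). All 3 KO wells were above the WT wells in mESC, at 8.47 to 9.79 against 7.02 to 8.04 CPM, and all 3 KO embryos below the WT embryos in kidney, at 1.46 to 2.22 against 2.44 to 2.59 CPM. The difference of the log2 fold changes was 0.71 (95% interval 0.24 to 1.19, adjusted p = 0.121 in the edgeR fit), which did not pass the adjustment. For *Dusp1* all KO wells lay below WT in mESC and both KO embryos above WT in GE/OB, but it was called in neither. The 95% intervals of the log2 fold change, -0.27 to 0.04 in mESC and -0.15 to 0.24 in GE/OB, included 0. The difference of the log2 fold changes was -0.16 (95% interval -0.41 to 0.09, adjusted p = 0.705 in the edgeR fit), so no opposite effect was shown. Groups that do not overlap made up 33.7% of tested genes in mESC, 10.2% in kidney and 27.3% in GE/OB.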

How the results depend on the processing

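Counts of called members were recomputed under 116 combinations of comparison and alternative, and 114 stayed within 1.5 times of the reported count. When the mESC wells were fitted on their own, 1 of 9 tested members (*Junb*) was called between KO and WT, beside 3561 of 14106 tested genes. Leaving out 1 library in turn gave 0 to 1 member for the difference of KO effects, the 1 being *Dusp1* without WT kidney replicate 8. On log2 TPM, which moved the median gene by 0.648 between GE/OB and mESC and by 0.536 between GE/OB and kidney, the sign of some differences turned: *Dusp1* between GE/OB and mESC (0.249), and between GE/OB and kidney *Fos* (0.017), *Jun* (0.573), *Junb* (0.129) and *Nr4a1* (0.391). Relative to the median gene these were -0.399, -0.519, 0.037, -0.407 and -0.144 on TPM and -0.519, -0.926, 0.014, -0.439 and -0.182 with TMM. On that footing none of the 5 turned, though *Jun* was at -0.027 with TMM before the median was taken off. TMM already held the median gene near 0 (0.051 and -0.04). Whether the median gene is unchanged between the tissues was not tested. Of 1607 single values 1486 kept their direction and, where tested, their call, 15 lost a call, 6 gained one and 95 uncalled values changed sign. Without WT GE/OB replicate 1 *Fosb* between GE/OB and kidney moved from -1.86 to -5.50, since the other embryo had 0 counts, so the size of that value depends on the prior count. Between GE/OB and kidney 7 members were called as reported, 6 with DESeq2 and 5 with DESeq2, length offsets and a looser filter (21914 genes tested). The wells' numbers did not pair the mESC samples (correlations of same-numbered wells 0.006, 0.016 and 0.045). With a replicate block 0 members were called between KO and WT in mESC. In the 3 tissue comparisons the block joined WT libraries by number alone, across mESC wells and embryos of 2 litters. Same-numbered WT libraries of different tissues correlated at -0.011 to 0.04. With that block 9, 9 and 6 members were called. *Atf3* between kidney and mESC (adjusted p = 0.0501) and *Junb* between GE/OB and kidney (adjusted p = 0.0655) lost the call. Since the numbers pair nothing there, these losses are not read as a result. Depth limits *Fosb* and *Egr2*, which had 0 to 29 counts a library, and *Fos* in GE/OB.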
